A study of Mus musculus with 6 samples.

Results

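The genes for collagen chains were described across the comparison of shNat14 with NTC cells of the embryonic mouse cortex. Members were all symbols made of Col, a type number, the letter a and a chain number, and 41 of the 21937 symbols of the table met this rule. They comprised 11 fibrillar chains, 8 chains of basement membranes and 22 chains of other classes. The rule uses symbols alone, although it was chosen with earlier results of these data known. Emid2, a gene of another name that is now counted as a collagen, is no member by this rule.

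The shNat14 group had a plasmid with an shRNA against Nat14 electroporated in utero at embryonic day 14.5, and the NTC group a plasmid with a control shRNA. All embryos were taken at embryonic day 18.5, and GFP-positive live cells sorted from the dissected cortex gave 3 libraries per group. The cells that took up a plasmid are progenitors lining the ventricle and their offspring, a mixed population whose strain and pooling the labels do not state. Nothing in the labels ties the libraries to separate embryos, so p-values cover the spread between libraries alone, which may be technical.

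The data are the authors' own gene by gene comparison, without values per library, so no value by sample, SD or depth can be given. Fold changes are on the log2 scale and positive where shNat14 was higher. The table does not name this direction, which was read from its negative sign for Nat14. The authors' deposited table put Nat14, the target of the shRNA, at -3.31 (adjusted p = 1.2e-08). The mean level over both groups is given as log2 CPM, that is, counts scaled to the size of the library,, with a median of 1.71 over all genes. The lowest listed value is -3.09, or 0.117 CPM, so values close to it lie near the bottom of the scale.

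Collagens are secreted or membrane-bound proteins built from chains that wind around each other into a triple helix. The helix requires glycine, the smallest amino acid, at regular positions, so the coding sequence is a long series of codon triplets that start with a glycine codon (GGN). Most fibrillar collagens have an unbroken helix and assemble into the fibrils of connective tissue, which in the brain belong to the meninges and the larger vessels. Type IV chains have an interrupted helix and form the network of basement membranes, beneath endothelium and at the pial surface. Collagens of the FACIT class sit on the surface of fibrils, beaded-filament chains form microfibrils, and transmembrane collagens span the cell surface. Neurons and their progenitors are not a main source of fibrillar collagen in the cortex.

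The annotated coding sequences of the members show these helix differences directly, in GENCODE M21 models of the assembly GRCm38. In the 9 chains of types I, II, III, V and XI, the longest unbroken run held between 337 and 344 triplets. In the 6 type IV chains the longest run was 39 to 66 triplets, and the helix was divided into 22 to 27 runs of at least 5 triplets. The 3 type IX chains each had a longest run of 113 triplets. In the fibrillar genes many exons follow the repeat as well, since 54 bases hold 6 triplets of 9 bases. These genes had 21 to 33 coding exons of exactly 54 bases, whereas the 6 type IV genes had 1 to 3. In the other classes the number ran from 0 in the 3 short-chain network genes to 28 in Col22a1, a FACIT gene.

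**Figure D1:**
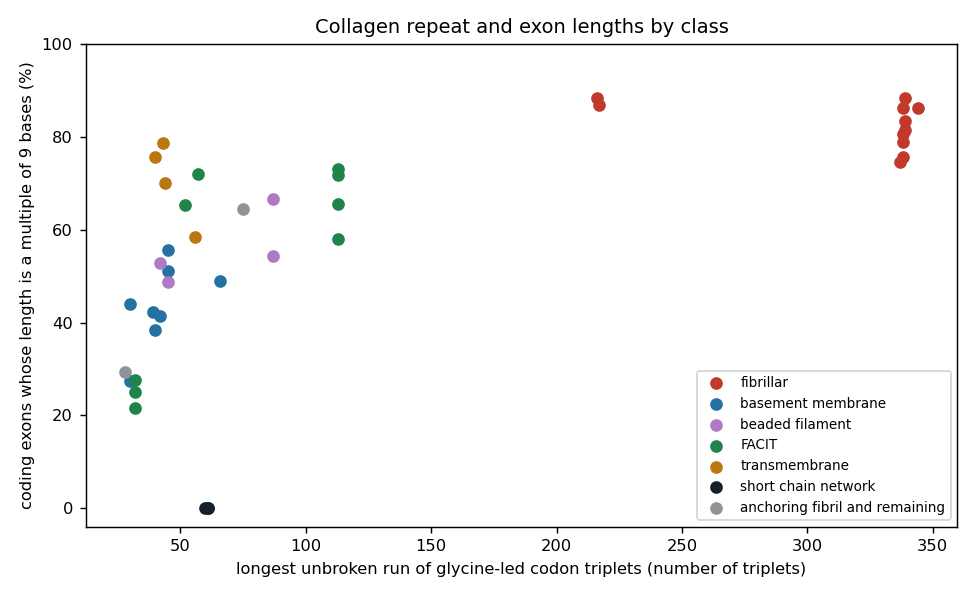
Each point is a collagen gene, placed by its longest unbroken run of glycine-led codon triplets (horizontal axis, number of triplets) and by the share of its coding exons whose length is a multiple of 9 bases (vertical axis, %), coloured by class. The 11 fibrillar genes stand apart at the right, with longest runs of 216 to 344 triplets and shares of 74.6 to 88.5%.

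Short coding stretches of 5 members that the results turn on are shown to make the repeat visible, with in-frame glycine codons in capitals. For Col1a2, Col3a1 and Col9a3 the stretch is the first exon of 54 bases inside the longest run, namely coding exon 8 of Col1a2 on chromosome 6, coding exon 6 of Col3a1 on chromosome 1 and coding exon 12 of Col9a3 on chromosome 2. For Col4a1 and Col4a2, both on chromosome 8, it is the 27 bases on either side of the end of the longest run, where the spacing of the capitals breaks.
Col1a2: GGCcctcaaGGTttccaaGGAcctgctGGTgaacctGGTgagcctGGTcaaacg
Col3a1: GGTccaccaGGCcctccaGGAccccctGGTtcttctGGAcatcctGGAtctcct
Col9a3: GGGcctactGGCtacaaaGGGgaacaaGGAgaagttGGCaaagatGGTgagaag
Col4a1: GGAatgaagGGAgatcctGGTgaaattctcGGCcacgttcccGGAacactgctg
Col4a2: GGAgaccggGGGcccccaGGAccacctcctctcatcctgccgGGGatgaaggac
The 3 exons of the upper lines each hold 6 evenly spaced glycine codons. The type IV stretches hold 5 in Col4a1 and 4 in Col4a2. Chains of this family repeat one simple pattern. Values are less certain where reads could map to several members, which was not tested.

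Collagen genes were at low levels in these cells. Of the 41 members, 11 reached the median level of all genes and 18 lay below 1 CPM. Per kilobase of annotated exon, Col9a3, a chain of the fibril-associated type IX collagen, had the highest mean level with 7.60 CPM per kb. Col11a1, a fibrillar chain of cartilage and other tissues, came next with 3.06, and Col5a2, a chain of the type V collagen that seeds fibrils, with 2.47 CPM per kb. These 3 genes made up 49.6% of the summed level per kilobase of all members.

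The order below them was Col4a5 with 1.63, Col3a1 with 1.44, Col1a2 with 1.31 and Col4a1 with 1.24 CPM per kb. Col9a1 followed with 0.945 and Col4a2 with 0.691 CPM per kb. With no values per library, it cannot be said which neighbours in this order differ beyond their spread. By class, FACIT chains held 37.6%, fibrillar chains 36.5% and basement membrane chains 18.3% of the summed level per kilobase. Some partner chains of one protein lay far apart and others close together. Col9a3 stood 8.05 times above Col9a1 and 28.1 times above Col9a2 per kilobase, and Col1a2 stood 3.03 times above Col1a1. The ratio of Col4a1 to Col4a2 was 1.80, and Col4a3 and Col4a4 had 0.316 and 0.359 CPM per kb.

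**Figure D2:**
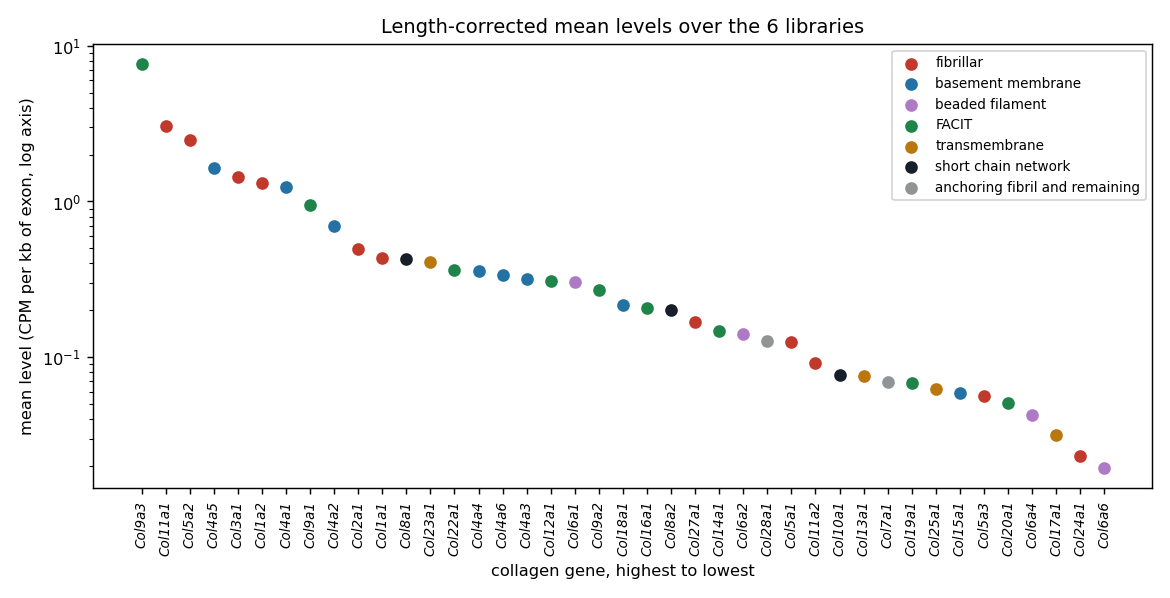
Mean level over the 6 libraries of each collagen gene in CPM per kb of exon (vertical axis, logarithmic), ordered from highest to lowest (horizontal axis) and coloured by class. Col9a3 leads with 7.60 CPM per kb, followed by 2 fibrillar chains, and the long tail at the right holds genes near the lowest value of the table.

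The most abundant markers of cortical neurons and of their progenitors lay far above these collagens, while the lowest of both lists lay among or below the best-expressed collagens. The authors' deposited table gave Neurod6, a transcription factor of cortical projection neurons, a mean level of 11.30 and Fabp7, a fatty acid binding protein of radial glia, 10.97 log2 CPM. Of the 11 neuronal markers matched, 10 reached the median level. The authors' deposited table held no gene of the neuronal or radial glia markers at unadjusted p under 0.05.

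The comparison asked whether collagen genes differed between cells with the Nat14 shRNA and cells with the control. The authors' deposited table held 34 genes with an adjusted p under 0.05, or 0.155% of 21937, and none of the 41 members was among these called genes. The tool behind the authors' test is not given for certain in the sources used here. At unadjusted p under 0.05 the table held 4 members, or 9.76%, against 5.04% of all genes. Among the 17400 genes above the lowest level, where every member lay, the share was 6.35%. Of the 4 members, 1 was higher, against 2.79% of all genes, and 3 were lower, against 2.25%. They were Col9a3, Col28a1, Col1a2 and Col13a1, and the smallest adjusted p among them was 0.835. No member had an unadjusted p under 0.01.

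**Figure D3:**
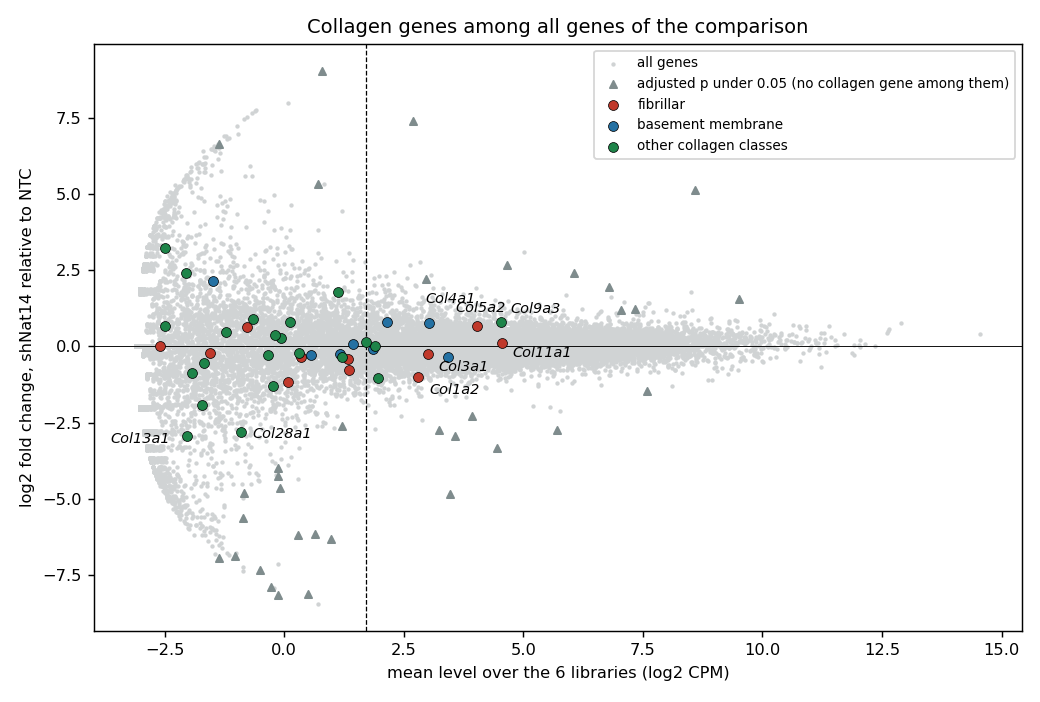
Mean level over the 6 libraries (horizontal axis, log2 CPM) against log2 fold change of shNat14 relative to NTC (vertical axis) for all genes (grey), with collagen genes coloured by class. The dashed line marks the median level of 1.71, and triangles mark the 34 called genes, none of them a collagen.

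Few genes at such levels were called. Between the median level and 5 log2 CPM, a range that holds the 11 best-expressed members, 8 of 5619 genes were called in the authors' deposited table. The smallest absolute log2 fold change among these 8 was 2.22. The 11 members had fold changes between -1.03 and 0.80. For members at or above the median level, an approximate 95% interval was computed from the deposited fold change and p-value, assuming a normal distribution of the estimate. A fold change whose interval spans 0 does not show that the groups were equal.

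Fibrillar chains were negative in 7 of 11 cases in the authors' deposited table, with 3 positive, Col24a1 at 0 and a median log2 fold change of -0.26. The median over all genes above the lowest level was 0.00. Chains of the class lay on both sides of 0. Col1a2, which with Col1a1 forms type I collagen, the main fibril of meningeal and other connective tissue, had the smallest p of the class. The authors' deposited table gave it -1.02 (unadjusted p = 0.0358, adjusted p = 0.949), which corresponds to 49.4% of the NTC level. Its approximate interval ran from -1.97 to -0.07. Col1a1 stood at -0.77 (unadjusted p = 0.213) at the lower mean level of 1.36 log2 CPM in the authors' deposited table.

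Col3a1, the single chain of type III collagen, which mixes with type I in soft tissue, stood at -0.26 in the authors' deposited table (unadjusted p = 0.674). Its interval, from -1.46 to 0.95, includes both the value of Col1a2 and 0. Col5a1 and Col5a2 are partner chains of type V collagen and stood on opposite sides of 0. The authors' deposited table listed -1.18 for Col5a1 (unadjusted p = 0.157, mean level 0.08) and 0.67 for Col5a2 (unadjusted p = 0.127, mean level 4.03 log2 CPM). Col5a3, a further type V chain, stood at -0.21 in the authors' deposited table, with a mean level of -1.54.

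Col11a1, the best-expressed fibrillar gene, stood at 0.12 in the authors' deposited table (unadjusted p = 0.725), with an interval from -0.57 to 0.81. Its partners in type XI collagen, Col11a2 and Col2a1 (which also forms type II collagen of cartilage), were listed at 0.63 (mean level -0.78) and -0.40 (mean level 1.34) in the authors' deposited table. Their unadjusted p-values were 0.647 and 0.531. The remaining fibrillar genes, named here after their values were seen, were Col27a1 at -0.34 (mean level 0.36) and Col24a1 at 0.00 (mean level -2.60) in the authors' deposited table. Col24a1 has the same fold change as genes at the lowest level, such as Mia3, and is not read as a measured absence of change. The type I chains were both negative, whereas the 2 best-expressed fibrillar genes, Col11a1 and Col5a2, were both positive, and none was called.

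**Figure D4:**
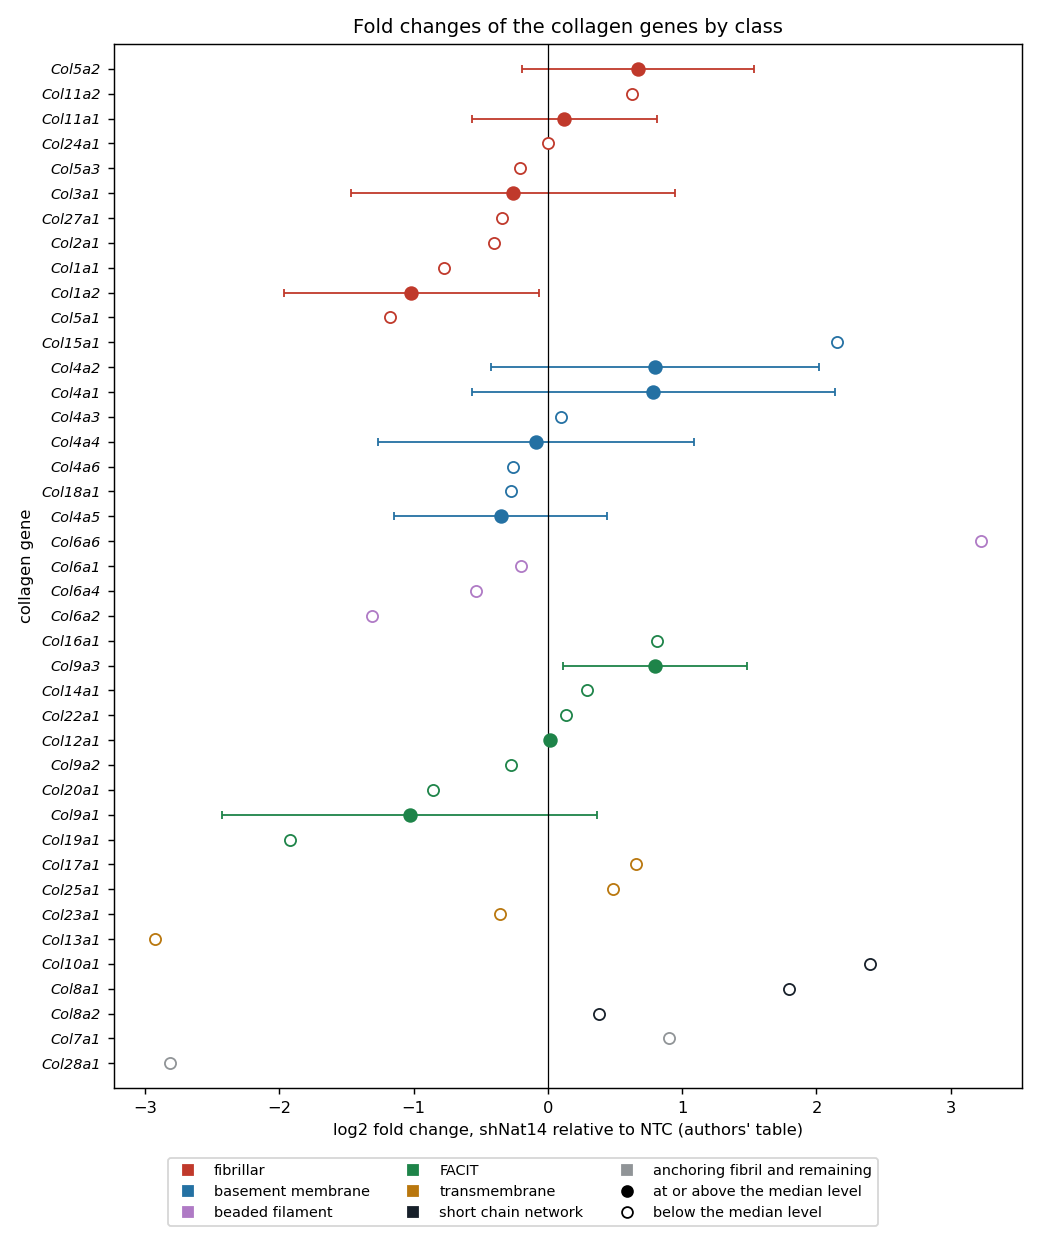
Log2 fold change of shNat14 relative to NTC (horizontal axis) of every collagen gene (vertical axis), ordered by class and then by value. Filled points are genes at or above the median level, with approximate 95% intervals where these were computed (none for Col12a1), and open points are genes below it. The intervals of Col9a3 (0.11 to 1.49) and Col1a2 (-1.97 to -0.07) do not span 0 before adjustment for the number of genes tested.

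Of the basement membrane chains 4 were positive and 4 negative in the authors' deposited table, with a median log2 fold change of 0.00 and none at unadjusted p under 0.05. Col4a1 and Col4a2 together form the type IV collagen found in nearly all basement membranes. They stood at 0.79 (unadjusted p = 0.254) and 0.80 (unadjusted p = 0.202) in the authors' deposited table, values that differ by 0.01. Their intervals, from -0.57 to 2.13 for Col4a1 and from -0.42 to 2.01 for Col4a2, both span 0. Their mean levels were 3.04 and 2.16 log2 CPM in the authors' deposited table.

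The chains of the other type IV networks stood nearer to 0. Col4a3 and Col4a4, partners in the network of kidney glomeruli, were listed at 0.10 and -0.09 in the authors' deposited table (unadjusted p = 0.943 and 0.884). Col4a5 and Col4a6, which are X-linked, were listed at -0.35 and -0.26 in the authors' deposited table (unadjusted p = 0.386 and 0.706). Col4a5, at a mean level of 3.42 log2 CPM, was the best-expressed type IV gene, and its interval ran from -1.15 to 0.44. The other members of the class, Col15a1 and Col18a1, carry sugar chains and are cut to release the peptides restin and endostatin. The authors' deposited table listed Col15a1 at 2.15 at the low mean level of -1.49 log2 CPM (unadjusted p = 0.148), and Col18a1 at -0.28 (mean level 0.55, unadjusted p = 0.729).

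The 6 type IV genes lie in 3 head-to-head pairs, each with a minus-strand and a plus-strand member. The fold changes of the pair members in the authors' deposited table differed by 0.01 for Col4a1 and Col4a2, by 0.09 for Col4a5 and Col4a6, and by 0.19 for Col4a3 and Col4a4. The other neighbouring members differed more. The difference was 0.93 between Col3a1 and Col5a2, 0.89 between Col9a1 and Col19a1, and 1.11 between Col6a1 and Col6a2. These are descriptions of 6 pairs from one comparison of the same libraries, and no test was made. Col19a1, Col6a1 and Col6a2 had low mean levels of -1.71, 0.31 and -0.23 log2 CPM, where large fold changes are common. The approximate intervals of Col3a1 (-1.46 to 0.95) and Col5a2 (-0.19 to 1.53) overlap. Those of Col4a1 and Col4a2 are wide beside a difference of 0.01. The annotated genes of Col4a1 and Col4a2 overlap, and without strand in the counting, reads from the overlap cannot be told apart.

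The start region of Col4a1 and Col4a2 is shown because this pair had the most similar fold changes. In RefSeq annotation of GRCm38.p6 the promoter windows of both genes, 250 bases before to 50 after each start, share 78 bases, and the starts lie 21 bases apart. The window of Col4a2, plus strand, chr8:11312555-11312854, is given with the bases shared with the window of Col4a1 in capitals.
Col4a2: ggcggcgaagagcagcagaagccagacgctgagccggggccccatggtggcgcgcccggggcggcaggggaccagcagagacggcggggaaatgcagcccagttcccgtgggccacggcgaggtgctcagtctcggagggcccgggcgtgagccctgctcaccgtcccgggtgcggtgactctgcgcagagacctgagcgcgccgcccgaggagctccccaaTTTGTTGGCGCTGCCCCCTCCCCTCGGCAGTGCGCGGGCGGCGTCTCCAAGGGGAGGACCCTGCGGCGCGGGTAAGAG
Of its 300 bases 73.7% are G or C. The letters CCAAT, searched on both strands as CCAAT and ATTGG, occur 1 time in this window, across the left edge of the capitals. They occur in 13 of 36 windows of 33 members found in the table of promoters, or 36.1%, against 37.4% of all 32851 windows.

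Of the 22 members of other classes 12 were positive and 10 negative in the authors' deposited table, with a median log2 fold change of 0.07. Col9a3 had the smallest p of all 41 members. The authors' deposited table gave it 0.80 (unadjusted p = 0.0222, adjusted p = 0.835), or 174% of the NTC level, with an interval from 0.11 to 1.49. Its partner Col9a1 stood at -1.03 (unadjusted p = 0.149, mean level 1.96) and Col9a2 at -0.27 (unadjusted p = 0.794, mean level -0.34) in the authors' deposited table. The type IX chains, which form one protein in cartilage, thus had values on both sides of 0, and the difference between chains was not tested. The annotated gene of Tcfl5, a transcription factor, overlaps Col9a3 and was listed at 1.37 in the authors' deposited table (unadjusted p = 0.279, mean level -0.82 log2 CPM).

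Col12a1, a FACIT chain of tendon and other dense tissue, stood at 0.01 in the authors' deposited table (unadjusted p = 0.991, mean level 1.90). Col22a1, a chain of tissue junctions, lay just below the median level at 1.70 log2 CPM and was listed at 0.13 in the authors' deposited table. The other FACIT genes, named after their values were seen, ranged from -1.92 for Col19a1 to 0.81 for Col16a1 in the authors' deposited table, with Col20a1 at -0.86 and Col14a1 at 0.29. All 4 had mean levels of 0.12 log2 CPM or less.

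Col28a1 and Col13a1 were the other members at unadjusted p under 0.05, both lower and both at low levels. Col28a1, a collagen with von Willebrand factor domains that is known from peripheral nerve, stood at -2.81 in the authors' deposited table (unadjusted p = 0.0294, adjusted p = 0.909, mean level -0.89). Col13a1, a transmembrane collagen of the neuromuscular junction, stood at -2.92 (unadjusted p = 0.0427, adjusted p = 0.985, mean level -2.04) in the authors' deposited table. The prior count behind these values is not known, so neither fold change is read as a bound. Unadjusted p was under 0.05 for 2 of the 30 members below the median level, against 4.17% of all genes there, and for 2 of the 11 members at or above it, against 5.91%. The genes below the median level include 4537 at the lowest level, none of them at unadjusted p under 0.05. No member lay at the lowest level, so 4.17% understates the share among the other genes below the median.

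The other transmembrane chains, named after their values were seen, were Col23a1 at -0.36, Col25a1 at 0.49 and Col17a1 at 0.66 in the authors' deposited table. Col25a1 is the neuronal collagen whose shed part is found in amyloid plaques, and its mean level was -1.21 log2 CPM. Beaded-filament chains of type VI were listed at -0.20 for Col6a1, -1.31 for Col6a2, -0.53 for Col6a4 and 3.23 for Col6a6 in the authors' deposited table. Unadjusted p-values of these 4 chains were 0.257 or more, and Col6a6 lay near the lowest level at -2.48 log2 CPM. Col6a3 and Col6a5, further chains of type VI, were not among the symbols of the authors' deposited table. The 3 short-chain network collagens were positive, with Col8a1, known from vessel walls and corneal endothelium, at 1.80 (unadjusted p = 0.123, mean level 1.13) in the authors' deposited table. Col8a2 stood at 0.38 and Col10a1, a cartilage collagen, at 2.40 (mean level -2.06), and Col7a1, the anchoring fibril of skin, at 0.90 in the authors' deposited table.

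Large fold changes among the members were mostly those of low genes. An absolute log2 fold change of at least 1 was listed for 9 of the 30 members below the median level, against 27.0% of all genes there. At or above the median level it was listed for 2 of 11 members, Col1a2 and Col9a1, against 3.37% of all genes there. The genes below the median level include 4537 at the lowest level, none of them with a change of that size. No member lay at the lowest level, so 27.0% understates the share among the other genes below the median. The medians of the fibrillar, basement membrane and other classes, -0.26, 0.00 and 0.07, are descriptions, and no test of a difference between classes was made.

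Genes that build, bind or break down collagen were described from 7 lists with 84 genes. The authors' deposited table called none of them, and 6 had an unadjusted p under 0.05, 3 higher and 3 lower. This is 7.14% of the 84 genes, near the 5.04% of all genes and the 6.35% of genes above the lowest level. Enzymes and chaperones that modify and fold the chains inside the cell were spread around 0 in the authors' deposited table, with a median log2 fold change of 0.00 over 22 genes. Serpinh1, the collagen chaperone of the endoplasmic reticulum, stood at -0.59 in the authors' deposited table (unadjusted p = 0.187). Leprel1, a prolyl 3-hydroxylase, was the single gene of this list at unadjusted p under 0.05 with 2.44 (p = 0.0231) and the low mean level of -1.29 log2 CPM in the authors' deposited table.

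Of 8 genes for cleavage of the propeptides none had an unadjusted p under 0.05. The smallest was that of Adamts2, the protease that removes the amino-terminal propeptide, at -0.83 in the authors' deposited table (unadjusted p = 0.172). Among 5 cross-linking oxidases Loxl1 stood at -1.15 in the authors' deposited table (unadjusted p = 0.0418), while the other 4 were positive, from 0.33 to 0.68. Of 14 fibril-associated glycoproteins, Fn1, fibronectin, on which fibrils are laid down, was listed at 1.43 (unadjusted p = 0.000466, adjusted p = 0.134) in the authors' deposited table. Thbs1, thrombospondin 1, stood at 1.15 (unadjusted p = 0.0255), and Dcn, decorin, which coats type I fibrils, at -0.91 (unadjusted p = 0.0708) in the authors' deposited table. Fn1 and Col1a2 thus had opposite signs.

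Of 12 laminins, nidogens and heparan sulfate proteoglycans that share basement membranes with type IV collagen, none had an unadjusted p under 0.05 in the authors' deposited table, and the median log2 fold change was -0.07. Lama2, a laminin chain, had the smallest p, with 0.48 in the authors' deposited table (unadjusted p = 0.157). Among 11 receptors, Lair1, an inhibitory collagen receptor of immune cells, was listed at -4.23 (unadjusted p = 0.0165) with a mean level of -0.16 log2 CPM in the authors' deposited table. Gpr56, the receptor for type III collagen in the developing cortex, stood at -0.18 in the authors' deposited table (unadjusted p = 0.626), and was named after its value was seen. Of 12 genes for breakdown and its inhibitors, Timp4, an inhibitor of matrix metalloproteinases, stood at -1.56 in the authors' deposited table (unadjusted p = 0.000142, adjusted p = 0.0662).

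**Figure D5:**
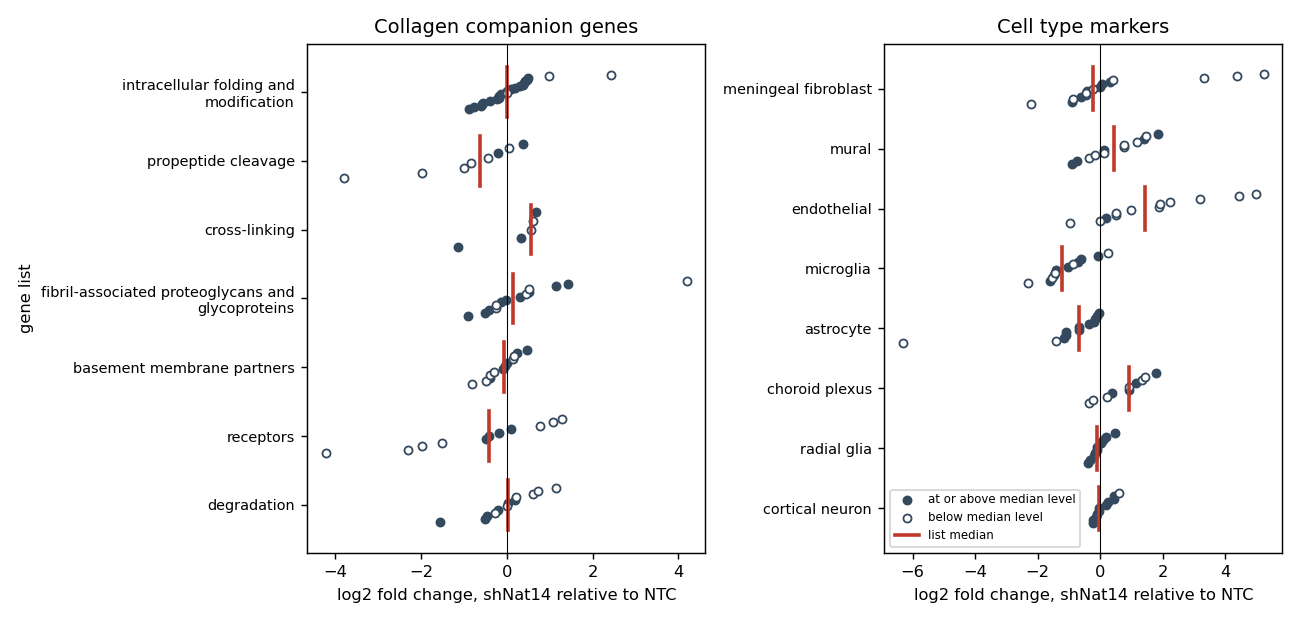
Log2 fold change of shNat14 relative to NTC (horizontal axis) for 84 genes in 7 lists of collagen companions (left) and for 8 lists of cell type markers (right), each point a gene, filled where its mean level reached the median of all genes. Red bars are list medians, which run from -0.64 to 0.55 for the companion lists and from -1.23 to 1.43 for the marker lists.

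Genes listed as markers of the cells that make most collagen in the cortex were detected, and they did not all share one direction. Of 15 meningeal fibroblast markers, 7 were positive and 8 negative in the authors' deposited table, with a median log2 fold change of -0.25. Of the positive ones, Foxc1, Foxc2, Twist1 and Slc47a1 had low mean levels, from -2.82 to -0.12 log2 CPM. Of the negative ones, Slc6a13, Aldh1a2, Crabp2 and Nov also lay below the median level, from 0.08 to 1.60 log2 CPM. Of the 7 at or above the median level, Dcn, Islr, Pdgfra and Ogn were negative, from -0.91 to -0.41. The others of these 7 were Lum at 0.31, Igfbp2 at 0.05 and Cyp1b1 at 0.01. The summed mean level was 172 CPM for the 15 meningeal markers, 86.5 for 12 mural and 25.4 CPM for 12 endothelial markers. For the neuronal markers it was 5632 CPM. Slc6a13, a transporter of the meninges, was the single meningeal marker at unadjusted p under 0.05 in the authors' deposited table (-2.23, p = 0.0463, mean level 0.67). Igfbp2 was the most abundant of the meningeal list (0.05, mean level 6.16 log2 CPM), followed by Pdgfra at 5.05. The sum weighs such abundant genes most, and whether they came from meningeal cells was not tested. Of 12 mural markers, 8 were positive with a median of 0.44, and Acta2, smooth muscle actin, and Rgs5, a pericyte gene, stood at 1.86 (unadjusted p = 0.021) and 1.41 (unadjusted p = 0.0477) in the authors' deposited table. Pdgfrb, the pericyte receptor, was listed at -0.75 in the authors' deposited table.

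Of 12 endothelial markers, 10 were positive in the authors' deposited table, with a median log2 fold change of 1.43, and 1 reached the median level of all genes. Emcn and Tek had fold changes of 4.98 and 4.43 in the authors' deposited table (unadjusted p = 0.0137 and 0.0397), with mean levels of -0.21 and 1.20 log2 CPM. Cldn5, a tight junction gene and the most abundant of the list, stood at 0.18 in the authors' deposited table (unadjusted p = 0.821). Beside the value of Lair1, 11 of 12 microglia markers were negative in the authors' deposited table, with a median of -1.23. Those at unadjusted p under 0.05 were C1qa, C1qb, Csf1r, Tmem119 and Aif1, between -2.31 and -1.42 in the authors' deposited table. At that threshold 2.25% of all genes were lower and 2.79% higher. Of the 17400 genes above the lowest level, 8750 were positive and 8282 negative. All 12 astrocyte markers were negative, with a median of -0.67. Among them Agt, angiotensinogen, was called, at -6.33 in log2 units (adjusted p = 6.99e-06, from the authors' deposited table), while Apoe, Aldh1l1, Aldoc and Gfap had an unadjusted p under 0.05 without being called. Slc1a3, the most abundant astrocyte marker, stood at -0.35 in the authors' deposited table (unadjusted p = 0.183). Of 10 choroid plexus markers 8 were positive, with a median of 0.91, and Ttr, transthyretin, the most abundant, stood at 1.80 in the authors' deposited table (unadjusted p = 0.065). None of the markers matched sat at the lowest level of the table. No value used here measures the purity of the sort. Why markers of microglia, vessels and meninges were detected among GFP-positive cells was not tested. Their values are thus not read as an effect of the shRNA on those cell types. Fewer cells of a type and less RNA per cell cannot be told apart in such bulk libraries. The part of these cell types in the values of Col1a2, Col4a1, Col4a2 and Lair1 was not tested.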

How the data were processed

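Cortical cells of 6 mouse libraries, 3 shNat14 and 3 NTC by the sample titles, were compared. The authors deposited a table with a log2 fold change, a mean level in log2 CPM, a p-value and an adjusted p-value per symbol, per the file headers. DESeq, HTSeq 0.5.4p1, SAMtools 0.1.19 and TopHat2 2.0.8 are listed without roles in the submitters' processing notes, with the human build hg19. Since the samples are mouse, the build used for the table stays uncertain. Which test and prior count gave the values is not given in the sources used here, and the depth per library is unknown.

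Members, classes and lists were chosen with earlier results of these data known, so lists are given by counts and medians without a test. Calls use the deposited p-values, adjusted over all symbols. Approximate 95% intervals are the fold change plus or minus a normal quantile times its size over the normal deviate of p, at or above the median level and p under 0.9. The code of this step and of the adjustment was run on simulated data with p-values made from normal estimates. The step inverts the formula that made those p-values, so the run could not show whether the normal assumption holds for the deposited values. Lengths, coding exons and codon runs come from the longest coding sequence of each gene in GENCODE M21 and exon unions in its basic set, with 41 of 41 members matched. Promoters come from RefSeq, GRCm38.p6. CPM values were divided by exon kilobases. Python 3.11.15, numpy 2.4.6, pandas 2.3.3 and scipy 1.17.1 were used.

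Named genes are the members at or above the median level or at unadjusted p under 0.05, Col1a1, Col1a2, Col3a1, Col4a1 and Col4a2, partner or neighbouring chains, and in each companion list the genes at unadjusted p under 0.05 or with the smallest p. For marker lists they are the genes at unadjusted p under 0.05 and the most abundant, of which 1 is not reported here. Others were named after their values were seen. Alternatives tried were other adjustments, thresholds, level filters, re-centring, means and a narrower basement membrane class.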

Additional observations from a re-analysis of the deposited data

How the results depend on the processing

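No collagen gene was called with adjustment over genes above the lowest level alone, over those that reached the median level, at adjusted p under 0.1, or with a fold change minimum. The count at unadjusted p under 0.05, which was 4, was 2 among members at or above the median level, and 0 members had an unadjusted p under 0.01. Of the 6 companion genes at unadjusted p under 0.05, 4 were among the 49 companion genes at or above the median level, against 5.91% of all genes there. The median log2 fold change of all members, -0.09, was 0.014 for members at or above the median level, -0.20 at or above 1 CPM, -0.12 after re-centring and -0.0051 as a mean. For fibrillar chains, -0.26 became -0.067, -0.37, -0.29 and -0.25 in the same order. For basement membrane chains, 0.00 became 0.35, -0.088, -0.028 and 0.36, and it stayed at 0.00 for type IV chains alone. For other classes, 0.07 became 0.014 at or above the median level, 0.041 after re-centring and -0.014 as a mean. Re-centring subtracted 0.03, the median of genes at or above the median level. The sign of the medians of all members, basement membrane chains and other classes thus depends on the setting, and that of the fibrillar chains did not in the settings tried. The cause was not tested. Settings that leave out a library were not run. No paired analysis was possible because only comparisons, and no values of single libraries, were used.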
